A study of Mus musculus with 3 samples.

Results

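Immediate early genes are switched on within minutes of a stimulus, without new protein synthesis, and 9 of them were followed here in cells from injured muscle that held a synthetic implant: Fos, Fosb, Jun, Junb, Jund, Egr1, Atf3, Ier2 and Nr4a1. They were taken by symbol from the 32285 genes of the deposited count tables, and all 9 had at least 1 UMI (unique molecular identifier, 1 captured molecule) in every library. The animals were wildtype C57BL/6 mice, an inbred laboratory strain, whose quadriceps had been given a volumetric muscle loss (VML), a defect too large to regenerate fully, filled with particulate polycaprolactone (PCL), a degradable polyester. The tissue was taken at 6 weeks. All 3 libraries, called replicates 1, 2 and 3, were of this 1 group, with no untreated, sham or uninjured muscle, so every comparison was between classes of cells within libraries. After removal of dead cells, CD45-positive (immune) and CD45-negative (stromal) cells were parted on magnetic beads and remixed 1:1. The share of immune cells is therefore not that of the tissue. The 2 fractions were handled apart between the beads and the remix. Whether each replicate was its own animal is not stated, and the p-values therefore reflect the spread among 3 libraries, possibly technical in origin.

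The 9 genes encode transcription factors or regulators of transcription. FOS, FOSB, JUN, JUNB and JUND are basic leucine zipper proteins that pair as AP-1: FOS proteins bind DNA only with a JUN partner, whereas JUN proteins also pair with each other. EGR1 is a zinc finger factor, ATF3 a stress-induced leucine zipper protein that also pairs with JUN proteins, NR4A1 an orphan nuclear receptor, and IER2 a nuclear protein of the same early response. Growth factors, cytokines, cell stretching and stress induce them through MAP kinases, serum response factor and CREB, and their RNAs decay quickly. Enzymatic digestion of a tissue to single cells is also known to induce them. No undissociated tissue was measured, so the part of digestion in the levels below was not tested.

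Among 7 of the 9 genes with an entry in RefSeq's promoter table (mouse build GRCm38.p6, 250 bases before the transcript start to 50 after it), 5 held the letters TGACG, the core of the cAMP response element that CREB proteins bind, on either strand. The 5 are printed because they hold these letters. Capitals mark TGACG or its reverse complement CGTCA, each match counted apart.
Fos, chr12:85473640-85473939, + strand: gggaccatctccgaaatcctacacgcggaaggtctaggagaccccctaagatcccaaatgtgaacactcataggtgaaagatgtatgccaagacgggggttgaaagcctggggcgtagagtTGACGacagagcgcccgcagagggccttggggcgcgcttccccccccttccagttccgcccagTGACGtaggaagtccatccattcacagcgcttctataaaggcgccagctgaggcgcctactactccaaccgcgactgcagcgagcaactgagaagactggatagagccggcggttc
Fosb, chr7:19309996-19310295, − strand: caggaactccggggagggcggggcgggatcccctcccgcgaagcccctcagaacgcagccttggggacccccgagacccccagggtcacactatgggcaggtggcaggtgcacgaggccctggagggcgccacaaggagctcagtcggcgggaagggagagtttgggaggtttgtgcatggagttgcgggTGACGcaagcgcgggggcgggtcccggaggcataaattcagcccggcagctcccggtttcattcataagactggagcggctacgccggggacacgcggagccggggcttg
Junb, chr8:84978699-84978998, − strand: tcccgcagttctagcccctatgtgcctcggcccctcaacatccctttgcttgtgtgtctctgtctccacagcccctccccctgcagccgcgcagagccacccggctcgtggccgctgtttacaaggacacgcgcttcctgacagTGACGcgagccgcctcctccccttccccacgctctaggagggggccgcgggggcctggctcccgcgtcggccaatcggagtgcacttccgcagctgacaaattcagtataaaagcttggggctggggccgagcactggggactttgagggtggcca
Atf3, chr1:191183284-191183583, − strand: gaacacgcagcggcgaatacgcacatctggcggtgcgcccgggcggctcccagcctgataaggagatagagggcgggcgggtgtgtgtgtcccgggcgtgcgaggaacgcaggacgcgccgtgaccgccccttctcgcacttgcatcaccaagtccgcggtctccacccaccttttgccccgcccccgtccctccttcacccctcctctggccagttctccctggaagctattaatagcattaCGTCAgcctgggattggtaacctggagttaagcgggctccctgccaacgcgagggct
Nr4a1, chr15:101266596-101266895, + strand: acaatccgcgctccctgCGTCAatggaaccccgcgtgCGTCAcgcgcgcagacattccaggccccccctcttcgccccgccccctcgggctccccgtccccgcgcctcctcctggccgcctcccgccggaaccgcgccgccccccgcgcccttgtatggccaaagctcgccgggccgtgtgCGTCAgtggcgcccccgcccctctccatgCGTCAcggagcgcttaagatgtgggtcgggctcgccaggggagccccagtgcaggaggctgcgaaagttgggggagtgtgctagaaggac
Nr4a1 held 4 matches, Fos held 2, and Fosb, Junb and Atf3 held 1 each. Of all 32851 promoters in the table, 20.8% held at least 1. The Jun and Jund windows held none, and Egr1 and Ier2 had no entry. TATAAA, searched on both strands, was in the Fos and Junb windows and in 13.6% of all promoters. TGANTCA, a site that AP-1 itself binds, was in none of the 7 windows and in 7.81% of all. Longer or variant AP-1 sites were not searched, so this is no count of all AP-1 sites. The CArG box, bound by serum response factor, was in none of the 7 and in 1.63% of all. Sequence outside the windows was not searched, so sites further from the start would be missed. A match describes letters, and binding was not measured.

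The libraries held 6068, 8643 and 4996 barcodes, with medians of 17855.5, 20286 and 17008.5 UMIs. After filtering, 5652, 7693 and 4605 cells remained, 17950 in all. Between 10 and 13 barcodes were shared by a pair of libraries. Cells were grouped by clustering without the 9 genes or their related lists and named "-like" from marker genes. Fibroblast-like cells were the most numerous (2271, 5464 and 2110 in replicates 1, 2 and 3), followed by macrophage-like cells (1135, 487 and 1010), and 12 classes had at least 20 cells in every library. Fibroblast-like cells alone made up 40.2%, 71.0% and 45.8% of the kept cells. The kept cells of replicate 2 were thus not at the 1:1 of the remix, and the share differed between libraries. A further 1565 cells stayed unnamed and entered no comparison. Median depth differed between classes, at 26619 UMIs for fibroblast-like cells, 14756 for macrophage-like cells, 4992 for neutrophil-like cells and 1545.5 for droplets called muscle fibre-like. A level is given as CPM: the UMIs of a class were summed in a library and brought to 1 common total, adjusted by TMM (a factor per sum that aligns most genes), and compared for 1 gene across cells and never between genes. A gene was called different at a Benjamini-Hochberg adjusted p under 0.05 over all genes, by edgeR's quasi-likelihood test, and a log2 difference of at least 1.

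Of the 9 genes, 5 were lower in immune-like than in stromal-like cells and 0 were higher, by edgeR and by DESeq2. At an unadjusted p under 0.05 edgeR gave 0 higher and 7 lower. The 5 were Egr1, Jun, Fosb, Fos and Ier2, and among all 18156 genes tested 30.2% were called lower and 19.4% higher. The median log2 difference of the 9 was -1.34, beside -0.14 over all genes. Each library gives both sums, so libraries were paired in the test. The CD45 fractions were handled apart, so that handling and the kind of cell cannot be told apart here.

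Egr1 had the widest gap of the 9. It had 147.2, 172.2 and 163.5 CPM in the immune-like cells of replicates 1, 2 and 3, against 1478, 1994 and 1794 CPM in the stromal-like cells. Every immune-like value was far below every stromal-like value, and the log2 difference was -3.44 ± 0.09 (SE; edgeR adjusted p = 1.86e-07). Jun, the AP-1 subunit that pairs with FOS proteins and with itself, had 289.5, 313.1 and 276.6 CPM in immune-like cells, against 1537, 1766 and 1803 CPM in stromal-like cells. The groups did not overlap, and the log2 difference was -2.54 ± 0.10 (SE; edgeR adjusted p = 7.65e-07).

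The FOS subunits differed less. Fos had 866.7, 689.9 and 992.4 CPM in immune-like cells, against 2266, 2568 and 2675 CPM in stromal-like cells, a log2 difference of -1.57 ± 0.12 (SE; edgeR adjusted p = 2.73e-05). Fosb had 381.2, 419.9 and 546.5 CPM in immune-like cells, against 1103, 1597 and 1316 CPM in stromal-like cells, a log2 difference of -1.58 ± 0.13 (SE). For both genes the highest immune-like library was well below the lowest stromal-like one. Ier2 had 146.1, 145.5 and 151.4 CPM in immune-like cells, against 335.3, 366.7 and 427.7 CPM in stromal-like cells, a log2 difference of -1.34 ± 0.09 (SE).

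The other AP-1 subunits did not pass. Junb, a JUN protein that is often a weaker activator than JUN itself, had 1454, 1422 and 1661 CPM in immune-like cells, against 1288, 1718 and 1518 CPM in stromal-like cells, and the groups overlapped (log2 difference 0.01 ± 0.11, SE). Jund, the JUN gene with the steadiest expression in many tissues, differed by -0.34 ± 0.09 (log2, SE) and Atf3 by -0.61 ± 0.11 (log2, SE), both with adjusted p-values under 0.05 but under the size needed. Nr4a1 differed by 0.29 ± 0.19 (log2, SE), with 273.6, 288.3 and 283.2 CPM in immune-like cells, against 162.7, 355.1 and 210.7 CPM in stromal-like cells. Its stromal-like values spread over more than the gap between the groups.

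**Figure D1:**
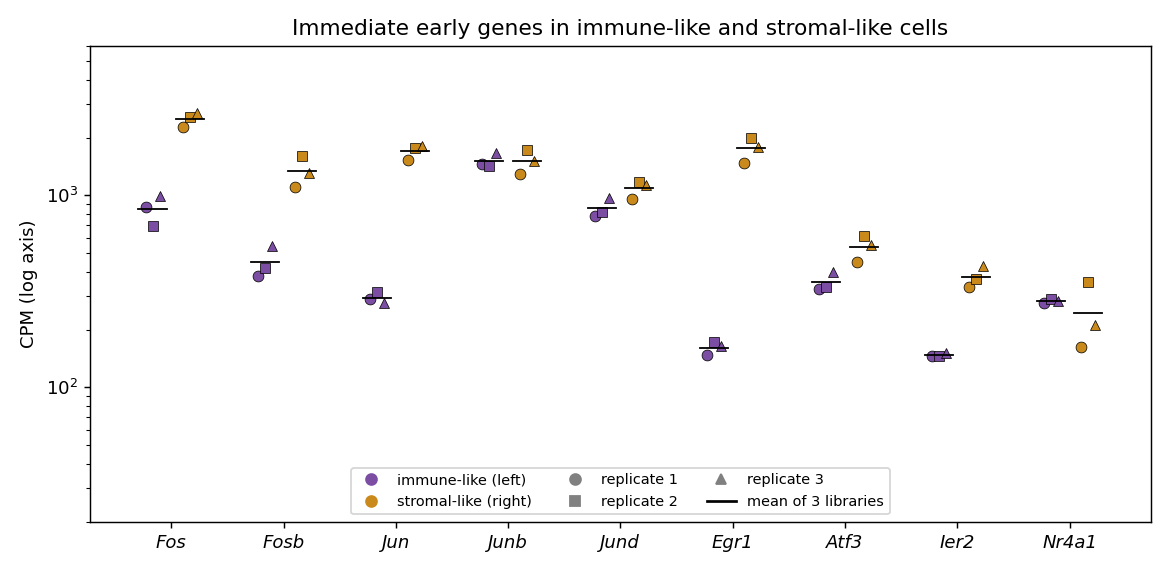
Level (CPM, log axis) of each of the 9 genes in immune-like cells (left) and stromal-like cells (right), 1 marker for each of the 3 libraries and a line at their mean. The mean of Egr1 was 161.0 CPM on the immune-like side, against 1755 CPM on the stromal-like side, while Junb, with a mean of 1512 CPM immune-like and 1508 CPM stromal-like, overlapped.

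These sums weight each class by its cells and depth. With every class given equal weight 3 of the 9 were lower: Egr1, Jun and Fos. The share of all genes called lower was counted only for the sums weighted by cells and depth. Under equal weights Fosb differed by -0.88 (log2) and Ier2 by 0.05. Jund differed by 0.36 (log2) under equal weights, the other sign from its -0.34 here, and was called under neither.

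Genes around the 9 in the same pathway were called in both directions, and their counts are read beside the 19.4% of all genes called higher and the 30.2% called lower. Several lie close to those shares. In immune-like cells 5 of 18 upstream factors and kinases passed as higher and 1 as lower, led by Rps6ka1, a kinase downstream of ERK (log2 difference 5.48 ± 0.12, SE), and Mapk14, which encodes the stress kinase p38 alpha (1.74 ± 0.07, SE), while Mapk9, which encodes the JUN kinase JNK2, was lower (-1.46 ± 0.16, SE). Of 18 other AP-1 and ATF genes, 5 were higher, led by Batf3 and Batf, which encode JUN partners of immune cells (4.20 and 3.33), and 1 was lower, Atf5 (-3.24). Of 9 dual specificity phosphatases, which switch MAP kinases off, 4 were higher, led by Dusp5 (3.48) and Dusp2 (2.97), and 3 lower, led by Dusp14 (-2.95) and Dusp8 (-2.74). Of 28 other early response genes, 4 were higher, led by Cebpb (2.27) and Plk3 (1.91), and 8 lower, led by the matricellular Ccn1 (-5.69) and Ccn2 (-5.63). The EGR co-repressor genes Nab1 and Nab2 differed by 0.74 and 0.24 (log2), under the size needed. Of 14 heat shock genes, which mark protein stress, 1 was higher, Hspa1a (1.03), and 4 lower, led by Hspb1 (-4.34) and Bag3 (-1.75).

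Across the 12 classes, each set against the mean of the others, 25 of 108 pairs of gene and class were called higher and 23 lower. Over all 13200 genes tested, 18.8% of such pairs were called higher and 11.0% lower. Mural-like cells, the contractile cells around small vessels, had the broadest rise outside the neutrophil-like class: 6 of 9, where 21.8% of all genes were called higher. Muscle fibre-like droplets had all 9 lower, where 21.2% of all genes were called lower. The other stromal-like classes had 1 to 4 higher, and each immune-like class but the neutrophil-like one had 2 to 4 lower.

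In mural-like cells Egr1 had 2572, 2072 and 2301 CPM in replicates 1, 2 and 3, its highest mean among the 12 tested classes, and a log2 difference of 2.72 ± 0.20 (SE; edgeR adjusted p = 4.45e-14) from the mean of the other classes. Nr4a1 had 902.2, 987.5 and 710.2 CPM there, also its highest mean among the 12, with a log2 difference of 1.64 ± 0.21 (SE). Fos, Fosb, Jun and Atf3 were higher by 1.57, 1.54, 1.78 and 1.46 (log2). Junb, at 0.88, was under the size needed. Other early response genes moved there too, 14 of 28 higher and 2 lower, led by Arc (5.48 ± 0.73, SE) and Ccn2 (3.72 ± 0.27, SE). Of 14 heat shock genes 5 were higher in mural-like cells, led by Hspb1 (4.38), a small heat shock protein that contractile cells express; their part in the immediate early values was not tested.

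Of the 12 tested classes, lymphatic endothelial-like cells had the highest mean of Fos, 4095, 4454 and 3935 CPM, with a log2 difference of 2.05 ± 0.14 (SE; edgeR adjusted p = 1.31e-14). Fosb, Jun and Egr1 were also higher there (1.37, 1.96 and 2.03), making 4 of 9 where 18.1% of all genes were called higher, and Nr4a1 was lower (-1.17 ± 0.28, SE) where 10.0% of all genes were called lower. Nr4a1 in these cells had 115.0, 257.4 and 74.6 CPM, and without replicate 3 its difference was -0.82 and no longer called. Endothelial-like cells of blood vessels had 1 of 9 higher, Egr1 (1.69 ± 0.21, SE), where 19.3% of all genes were. Fos there had 1771, 1425 and 1941 CPM, each under each lymphatic endothelial-like value.

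Tenocyte-like cells, of tendon, had 4 of 9 higher (Fos 1.83, Fosb 1.77, Jun 2.12, Egr1 2.58), where 21.9% of all genes were. Fibroblast-like cells had 3 higher, Egr1 (2.20 ± 0.20, SE), Jun (1.57 ± 0.18, SE) and Fos (1.13 ± 0.15, SE), where 24.0% of all genes were. Fosb, at 0.95 ± 0.17 (SE), was just under the size needed. With 3 of 9, the share called in fibroblast-like cells was little above that of all genes.

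Macrophage-like cells had 3 of 9 lower, where 5.92% of all genes were called lower. Egr1 had 79.4, 71.1 and 127.1 CPM, with a log2 difference of -2.37 ± 0.30 (SE; edgeR adjusted p = 4.21e-08). Jun was lower by -1.93 ± 0.24 (log2, SE) and Ier2 by -1.44 ± 0.16 (log2, SE). Junb differed by 0.08 ± 0.18 (log2, SE), with 1317, 1354 and 1652 CPM. Of the other early response genes 4 were higher there, led by Sgk1 (1.62) and by Egr2 (1.54), which encodes another EGR factor, and 8 were lower, where 16.7% of all genes were called higher.

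Monocyte-like and both dendritic-like classes had Jun and Egr1 lower. The log2 differences of Egr1 were -2.39 ± 0.31 in monocyte-like, -2.03 ± 0.32 in cDC1-like and -1.24 ± 0.30 in cDC2-like cells (SE), and those of Jun were -1.24, -2.59 and -1.11. These 2 of 9 in each class stand beside 8.51%, 13.1% and 7.72% of all genes called lower. Without the muscle fibre-like droplets among the other classes, 3 were lower in monocyte-like, 5 in cDC1-like and 3 in cDC2-like cells. The shares of all genes were not counted without these droplets. The Jun call in cDC2-like cells was lost without replicate 1 (-0.97). T or NK-like cells had 4 of 9 lower (Egr1 -1.84, Atf3 -1.75, Fos -1.41, Jun -1.30), where 9.13% of all genes were. Jun there had 314.3, 119.9 and 350.6 CPM, and its call was lost without replicate 2 (-0.90). Nr4a1, which T cell receptor signalling induces, had 458.4, 326.5 and 448.3 CPM in these cells and was not called (0.51 ± 0.25, SE).

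The neutrophil-like result depended on the scaling. After TMM 7 of 9 were higher in neutrophil-like cells, where 27.7% of all genes were: Jun (2.07 ± 0.17), Atf3 (1.99 ± 0.16), Junb (1.71 ± 0.15), Ier2 (1.54 ± 0.13), Jund (1.54 ± 0.11), Egr1 (1.37 ± 0.22) and Nr4a1 (1.36 ± 0.23, all log2 with SE). Scaled by library totals alone, an alternative chosen after the data were seen, none of the 7 was called and Fos (-1.85) and Fosb (-1.11) were lower. The median of all genes was -0.02 with TMM and -1.25 with library totals in this class, and relative to that median the log2 difference under library totals was 2.12 for Jun, 0.145 for Fosb and -0.60 for Fos. Fosb differed by 0.10 with TMM. A change of scaling moves all genes of a class by nearly the same amount. Values relative to the median, and the order of the genes, therefore stay alike by construction and cannot settle which scaling is right. In that order Jun and Atf3 were the furthest up and Fos the furthest down. Jun was uneven among neutrophil-like cells: the 10% of cells with the most held 66.4%, 59.0% and 56.5% of its UMIs in replicates 1, 2 and 3. Without the muscle fibre-like droplets among the other classes, Egr1 (0.80), Nr4a1 (0.87), Ier2 (0.98) and Jund (1.00 after rounding, just short) were no longer called in neutrophil-like cells. Fos was then called lower (-1.24), as it was without replicate 2 (-1.01) and with at least 1000 genes per cell (-1.04). With at least 1000 genes per cell Egr1 (0.94) was also no longer called.

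Muscle fibre-like droplets had log2 differences between -2.86 (Fos) and -2.02 (Nr4a1), while the median of all genes there was -0.54. They were the shallowest class of the 12. Fos had 161.6, 144.6 and 247.7 CPM there.

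In the order of the classes, most neighbours did not differ beyond their spread. For Egr1 the ranges over libraries overlapped in a run of 6 classes (mural-like, tenocyte-like, fibroblast-like, lymphatic endothelial-like, endothelial-like, neutrophil-like), and then a gap divided the lowest of them, neutrophil-like at 739.4 CPM in its lowest library, from cDC2-like at 207.2 CPM in its highest. Jun had the same gap, between endothelial-like cells (995.5 CPM on average) and cDC2-like cells (294.5 CPM), with neutrophil-like cells again on the upper side. Muscle fibre-like droplets, though stromal-like, lay below the gap for both genes. These levels were after TMM, and those of neutrophil-like cells depended on it. Junb and Jund had no such gap between stromal-like and immune-like classes. Nr4a1 had no gap at all, since each class overlapped the next, and its top 6 were mural-like and 5 immune-like classes. Over the 12 class means, Jun and Egr1 had a Pearson correlation of 0.96, Fos and Fosb of 0.93 and Junb and Jund of 0.96, whereas Fos and Nr4a1 had 0.13. These describe 12 points that share libraries and scaling.

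**Figure D2:**
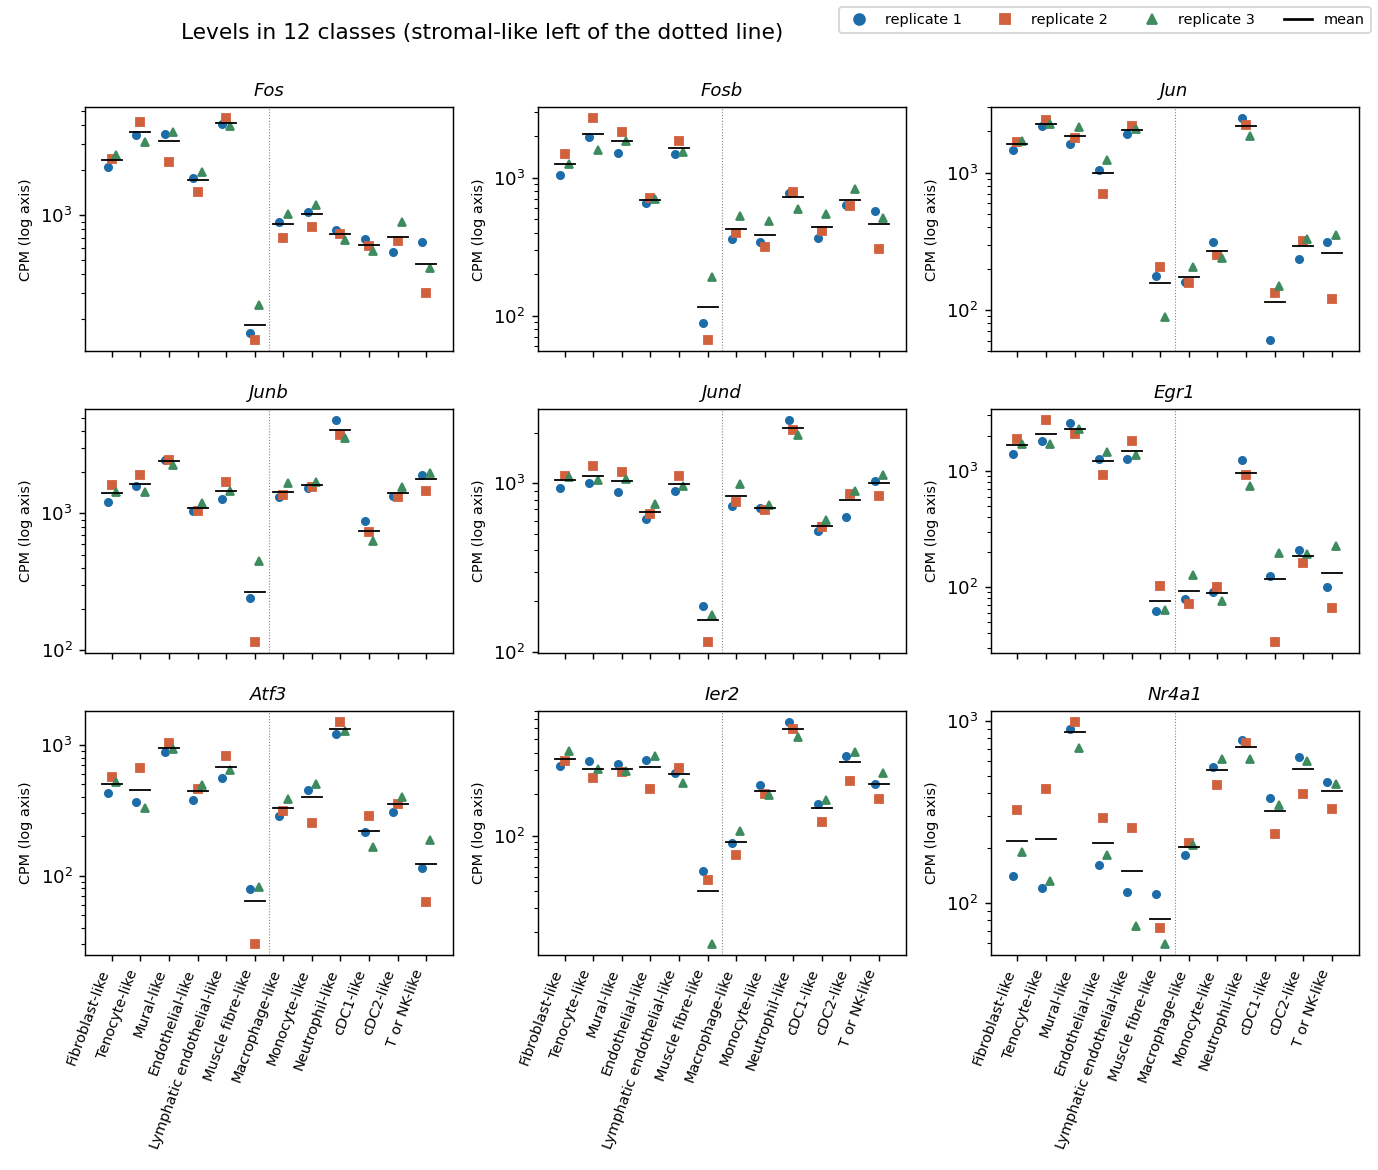
Level (CPM, log axis, own scale for each gene) of the 9 genes in 12 classes, stromal-like left of the dotted line and immune-like right of it, with 1 marker for each of the 3 libraries and a line at the mean. After TMM, Egr1 and Jun part neutrophil-like cells and all stromal-like classes but muscle fibre-like droplets from the other immune-like classes. Junb and Jund do not, and muscle fibre-like droplets are lowest or near lowest throughout.

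The low immune-like levels were set beside fibroblast matrix genes that macrophages should not make, since free RNA in the suspension gives UMIs in every droplet. In macrophage-like cells Col1a1, Col1a2, Col3a1 and Dcn stood at 1.21%, 1.13%, 1.17% and 0.983% of their fibroblast-like level, and Egr1 at 5.58% (5.72%, 3.79% and 7.45% in replicates 1, 2 and 3). Egr1 was thus above the level of these 4 in each library. Jun stood at 10.8%, Fos at 37.5% and Junb at 101.7%, and Ier2 at 27.9%, 20.8% and 26.4% in the 3 libraries. In neutrophil-like cells, the class with a median of 4992 UMIs, Col1a1 stood at 3.58% and Egr1 at 58.2%. Both values were after TMM, on which neutrophil-like levels depended.

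The same contrast was seen in the share of cells with at least 1 UMI, with each cell thinned to 2000 UMIs. Fos was found in 67.5% ± 5.81 of macrophage-like and 89.6% ± 2.82 of fibroblast-like cells (SD, n = 3). Egr1 was found in 13.8% ± 2.89 of macrophage-like and 87.3% ± 3.21 of fibroblast-like cells (SD, n = 3), and Junb in 86.4% ± 2.76 of macrophage-like and 84.3% ± 3.65 of fibroblast-like ones. Thinning left 2507 of 2632 macrophage-like and 9769 of 9845 fibroblast-like cells. Without thinning, the Egr1 share was 44.2% of macrophage-like cells (median depth 14756 UMIs) and 97.5% of fibroblast-like cells (26619 UMIs). Egr1 was uneven among macrophage-like cells: the 10% of cells with the most held 73.8%, 61.1% and 73.5% of its UMIs in replicates 1, 2 and 3, against 24.3%, 22.3% and 23.0% in fibroblast-like cells. Its mean was 1.59 UMIs per macrophage-like and 53.9 per fibroblast-like cell, and such a share rises at low counts. Ier2, with a mean of 1.57 UMIs per macrophage-like cell, had 46.7%, 43.6% and 50.6% there.

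Fibroblast-like cells were split into 9 states, clustered without the 9 genes and called by number and leading genes. Of 81 pairs of gene and state, 3 were higher and 12 lower, while over all 14637 genes tested 6.40% of such pairs were higher and 5.24% lower. The lower ones were all in state 7, led by the cell division genes Hist1h1b, Pimreg, Hmmr, Pbk and Depdc1a, and in state 2, led by Olfr810, Cryaa, Spp1, Tnn and Serpinb2. The higher ones were Jun and Fosb in state 6, whose leading genes included Grm8, Lsamp, Chrm3 and Inmt, and Atf3 in state 5, led by Cxcl13, Myoc, Ppp2r2b, Opcml and Ntrk2.

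State 7 had 7 of 9 lower, where 8.85% of all genes were: Atf3 (-1.83 ± 0.11), Junb (-1.38 ± 0.09), Nr4a1 (-1.37 ± 0.14), Jun (-1.25 ± 0.08), Egr1 (-1.25 ± 0.09), Fosb (-1.17 ± 0.10) and Fos (-1.07 ± 0.09, all log2 with SE). State 2 had 5 of 9 lower, where 9.33% of all genes were: Atf3 (-2.31 ± 0.12), Fos (-1.14 ± 0.09), Egr1 (-1.08 ± 0.08), Nr4a1 (-1.04 ± 0.13) and Fosb (-1.02 ± 0.10). Atf3 had 92.9, 148.6 and 137.2 CPM in state 2, and its lowest library in any state but 2, 3 and 7 was 493 CPM. Under library totals alone 7 of the 12 lower calls were made, among them Atf3 in both states.

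State 6 had Jun (1.08 ± 0.06) and Fosb (1.07 ± 0.08, log2 with SE) higher, where 8.74% of all genes were. Jun had 3342, 3354 and 3306 CPM there, above every library of every other state. State 5 had Atf3 higher (1.04 ± 0.09, SE), where 4.09% of all genes were. These 3 calls lie close to the size needed: without replicate 1 they were 0.88 for Fosb, 0.98 for Jun and 0.98 for Atf3, and none was called. Without state 7 they were 0.99 for Fosb, 0.99 for Jun and 0.81 for Atf3, again under the size needed, and state 2 then had 8 of 9 lower. The share of all genes was not counted without state 7. Without replicate 3 there were 5 higher calls over the states.

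CPM moved with depth across the states. The low states 2 and 7 had medians of 44594 and 45298 UMIs per cell, and state 6 had 14294. State 3, with a median of 36721 UMIs, had no call but was low too. By CPM states 2, 3 and 7 were the 3 lowest in all 3 libraries for every member but Jun and Ier2. Those 2 had this order in 1 library each. Counted as UMIs per cell the members varied less. Fos ran from 1269 CPM in state 2 to 4392 CPM in state 6, a 3.46-fold range, but from 63.7 UMIs per cell in state 8 to 91.0 in state 0, a 1.43-fold range, while the UMIs of all genes per cell ran 3.12-fold. Egr1 ran 3.68-fold in CPM and 1.40-fold in UMIs per cell. Atf3 kept a wide range on both scales, 7.74-fold in CPM and 3.64-fold in UMIs per cell, lowest in state 2 (6.50 UMIs per cell) and highest in state 5 (23.7). Jun ran 2.59-fold in UMIs per cell, lowest in state 1 (28.4) and highest in state 0 (73.6). Ier2 turned its order: in UMIs per cell state 2 was the highest (15.6), though by CPM it was the second lowest.

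**Figure D3:**
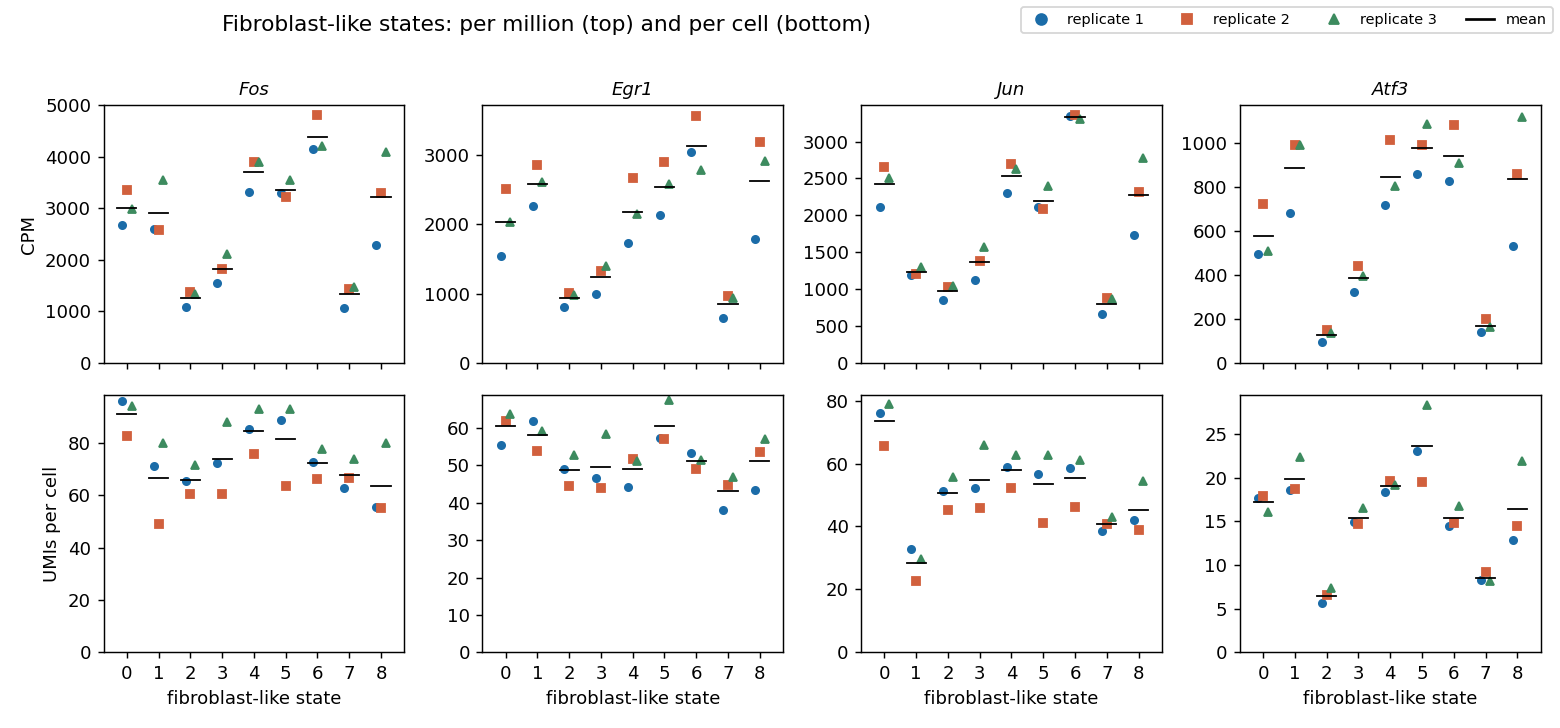
Fos, Egr1, Jun and Atf3 in the 9 fibroblast-like states, as CPM (top) and as UMIs per cell (bottom), with 1 marker for each of the 3 libraries and a line at the mean. By CPM states 2 and 7 are low for all 4, and states 2, 3 and 7 are the lowest in every library for Fos, Egr1 and Atf3. By UMIs per cell Fos and Egr1 lie within 1.43-fold and only Atf3 keeps states 2 and 7 clearly lowest.

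All fibroblast-like cells were also split into 4 equal groups by depth in each library. Levels in these groups are CPM of each group's own total, without TMM. CPM of each of the 9 genes was highest in the shallowest group and UMIs per cell were lowest there. CPM divides by the same depth that formed the groups, so part of this opposite movement is built in. In macrophage-like cells split in the same way, all but Fos and Atf3 had their highest CPM in the shallowest group. Atf3 had 249.8 CPM there and 322.0 CPM in the deepest. The values that follow are of fibroblast-like cells. Over the groups CPM ranged 1.47- to 2.34-fold and UMIs per cell 2.00- to 3.00-fold. From the shallowest to the deepest group Fos had 3729, 3142, 2628 and 1821 CPM, but 45.0, 75.1, 88.5 and 97.4 UMIs per cell, while the median depth was 12957, 23914, 33510 and 50147 UMIs. For Fos these are ranges of 2.05-fold in CPM and 2.16-fold in UMIs per cell. Ier2 had 506.3 CPM in the shallowest and 345.5 CPM in the deepest group, but 6.16 and 18.5 UMIs per cell, and Atf3 had 782.1 and 333.6 CPM. The 14 heat shock genes summed to 4202 CPM in the shallowest group and 3744 CPM in the deepest. Whether depth here reflects cell size, RNA content or capture was not tested.

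Genes of the related lists moved in these states too. In state 7, 8 of 28 other early response genes were lower and 0 higher (18 and 2 at an unadjusted p under 0.05, by edgeR), led by Cebpd (-2.13) and Klf4 (-1.96). In state 2, 6 were lower, led by Klf4 (-2.08) and Myc (-1.77), and 2 higher, Egr3 (1.63) and Tnfaip3 (1.60). Of 8 dual specificity phosphatases tested 4 were higher in state 2, where 7.32% of all genes were, led by Dusp4 (2.51) and Dusp14 (2.00). In state 7, where 11.2% of all genes were called higher, 3 were higher, led by the same pair (1.80 and 1.42), and Dusp1 was lower (-1.02). The summed level of this list, in CPM of library totals without TMM, was nevertheless lowest in these states. It was 840.1 CPM in state 7 and 1013 CPM in state 2, against 1086 to 1554 CPM in the others. The counts, made after TMM, and the sum thus differ in direction and also in scaling. Of 14 heat shock genes 0 were called in state 2 (4 higher and 7 lower at an unadjusted p under 0.05, by edgeR), 1 was lower in state 7, Dnajb1 (-1.09), and 3 were higher in state 6, led by Hspa1a (1.67) and Hspa1b (1.48). The heat shock genes and the higher Jun and Fosb of state 6 moved in the same state; their part was not tested.

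Within fibroblast-like cells the 9 genes varied together from cell to cell. Over the 36 pairs, Pearson's r on log counts per 10000 lay between 0.18 and 0.80 in single libraries, with a median of 0.51 (2271, 5464 and 2110 cells). The closest pair was Junb and Egr1 (mean r = 0.75), followed by Fos and Jun (0.73) and Fos and Fosb (0.71). The loosest was Jun and Nr4a1 (0.19). Cells of a library share its handling, and the counts share each cell's depth, so these are descriptions with no test. In macrophage-like cells the values were lower, between -0.02 and 0.45 with a median of 0.20, at fewer UMIs per cell (Fos 15.2, against 76.5 in fibroblast-like cells).

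Other genes place these values. Zfp36, an early response gene whose product degrades short-lived RNAs, had r of 0.76 with Junb and 0.72 with Egr1 in fibroblast-like cells, and Dusp1 had 0.58 with Fos. The heat shock gene Hspa1a had 0.07 with Fos and -0.02 with Egr1, while Hspa1a and Hspa1b had 0.44 with each other. Dnajb1 had 0.24 with Fos. Most heat shock genes were not among these pairs, and the part of protein stress in the immediate early values was not tested.

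**Figure D4:**
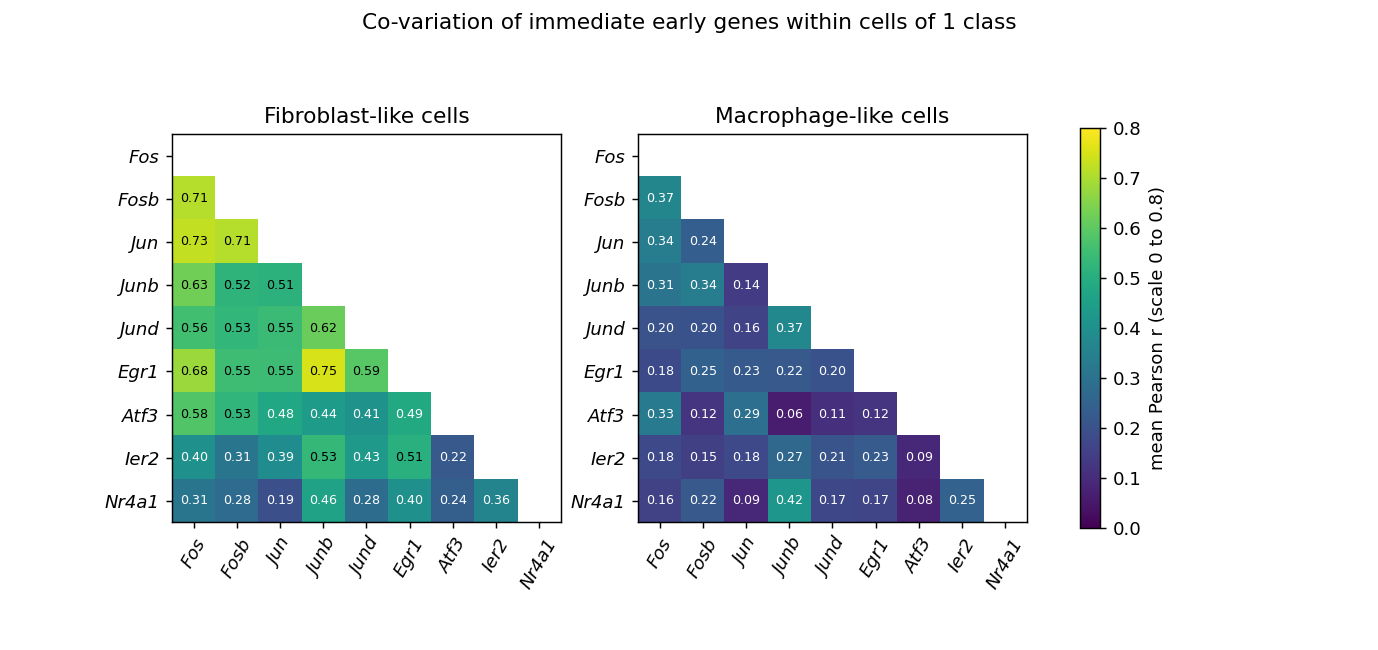
Pearson's r over single cells for each pair of the 9 genes, as the mean of 3 libraries, in fibroblast-like cells (left) and macrophage-like cells (right). Values in fibroblast-like cells reach 0.75 (Junb and Egr1) and Nr4a1 has the lower ones, and the macrophage-like values are lower for most pairs.

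Set beside the median gene, which was not matched for level, the 9 genes varied more between libraries in fibroblast-like cells. Most varied less than it in neutrophil-like cells. In fibroblast-like cells the SD of log2 CPM over the 3 libraries was 0.08 for the median gene among 8376 with at least 10 CPM. Nr4a1 had 140.2, 323.8 and 191.1 CPM, an SD of 0.61 that exceeded 99.6% of those genes. The other 8 had SDs from 0.11 (Jun) to 0.25 (Fosb), above the median gene in each case. In macrophage-like cells Nr4a1 was the steadiest of the 9 (183.9, 213.9 and 208.3 CPM, SD 0.12) and Egr1 the least steady (SD 0.44). In neutrophil-like cells 8 of the 9 had an SD under that of the median gene (0.35). That median was over genes with at least 10 CPM, while the 9 had means of 593.5 to 4033 CPM there. Low counts spread more by counting alone, and replicate 3 held only 163 such cells. The comparison therefore does not show that the 9 were steadier than other genes of their level.

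The library that stood out was not the same one in each class and changed with the scaling. By CPM, in fibroblast-like cells replicate 1 was the lowest for 9 of 9 genes, in macrophage-like cells replicate 3 was the highest for 8 of 9, and in neutrophil-like cells replicate 3 was the lowest for 8 of 9. By UMIs per cell replicate 2 was the lowest for 6 of 9 in fibroblast-like, 8 of 9 in macrophage-like and 8 of 9 in neutrophil-like cells, and replicate 1 for 3 of 9 in fibroblast-like cells. The UMIs of all genes per fibroblast-like cell were 34791, 26492 and 31405 in replicates 1, 2 and 3. With 1 group of libraries no cause of this spread could be tested. The heat shock sum in fibroblast-like cells was 3897, 4339 and 3430 CPM of library totals, without TMM, in replicates 1, 2 and 3. Its relation to the spread of the 9 genes was not tested.

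**Figure D5:**
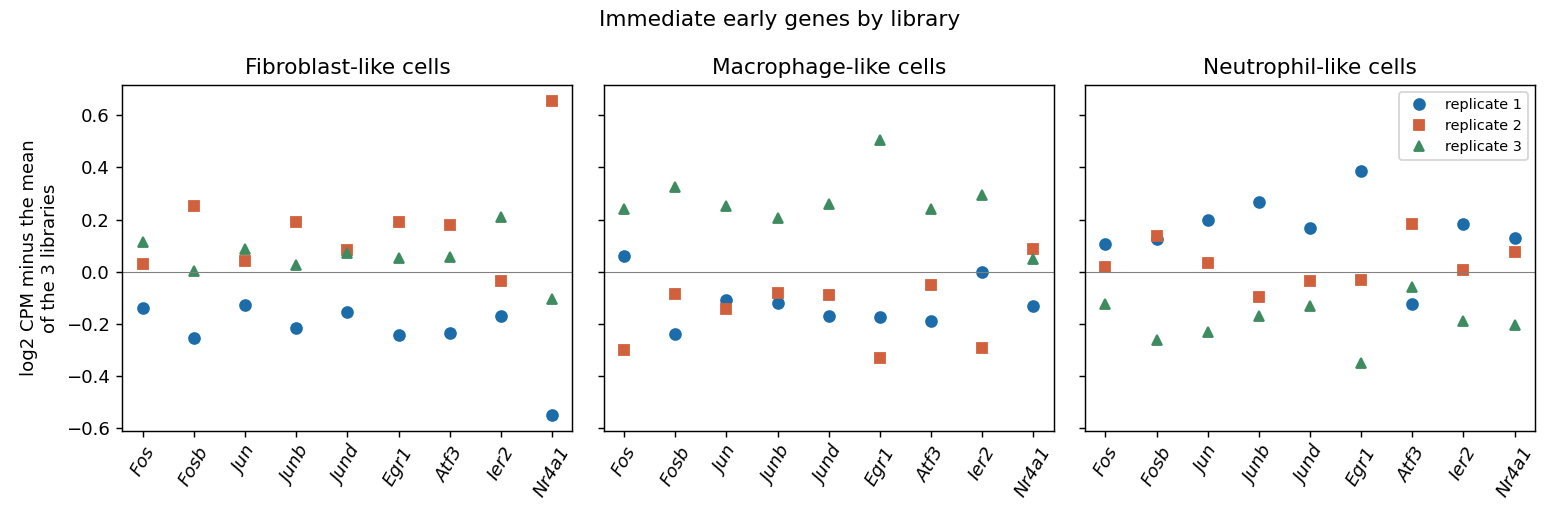
Difference of each library's log2 CPM from the mean of the 3 libraries, for the 9 genes in fibroblast-like, macrophage-like and neutrophil-like cells. On this CPM scale replicate 1 is lowest for every gene in fibroblast-like cells, replicate 3 is highest for 8 of 9 in macrophage-like cells, and Nr4a1 in fibroblast-like cells spreads widest (SD 0.61).

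The genes whose level over the 12 classes was most like the mean of the 9 were Stau1, Cd46, Sbno2, Smpd2 and Jrkl, with Pearson correlations of 0.95, 0.95, 0.94, 0.93 and 0.93 over 12 class means, out of 12374 genes ranked and with the related lists left out. With 12 classes and so many genes, high values arise for some genes in any case, and nothing is read from the names.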

How the data were processed

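The authors' deposited matrices hold UMI counts per gene and barcode, whole numbers without normalization, made with 10x 3′ version 3.1 chemistry per the labels' protocols. Cell Ranger is given as 6.1.2 by the submitters' processing notes but as 7.0.0 by the file headers, and this was not settled. The sources used here name neither the genome build nor whether introns were counted. The members and lists were chosen with earlier results of these data known.

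Barcodes were kept with at least 500 UMIs, 200 genes and at most 20% mitochondrial counts, and Scrublet doublets (scanpy 1.11.5) were removed at 0.8% per 1000 barcodes. Counts were scaled to 10000 per cell, and 2000 variable genes without any list gene were clustered (Leiden, resolution 1, 30 components, 15 neighbors, leidenalg 0.10.2; states at 0.5). Mixed clusters were split again, giving 82 clusters. Each was named by marker score, with at least 3 detected markers and at least 2 times the next unrelated class, thresholds set after cluster tables had been seen. By these rules 33 clusters stayed unnamed.

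UMIs were summed per library and class and tested with the quasi-likelihood functions of edgeR 4.0.16, run in R 4.3.3 beside limma 3.58.1. Low genes were dropped by filterByExpr, factors were TMM, and the library was a block, since all its sums come from 1 suspension. Differences were of immune-like over stromal-like cells and of each class or state over the mean of the others. SDs of log2 CPM used a pseudocount of 0.5. The script was tested on simulated counts. Alternatives were no block, RLE factors, DESeq2 1.42.0, no filter, each library left out, mitochondrial share at most 10%, stricter doublet removal, at least 1000 genes per cell, equal class weights, other resolutions and thinning. Added after seeing the data were library totals alone, no muscle fibre-like droplets and no state 7. All 9 members are named in each comparison; of each other list at most 2 called genes per direction, by size; of a state the 5 called genes with the largest difference, 1 of which is not reported here; and the 5 most similar genes.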

Additional observations from a re-analysis of the deposited data

How the results depend on the processing

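In immune-like against stromal-like cells 5 of the 9 genes were lower under every alternative tried but equal class weights, which gave 3 and turned Ier2 to 0.055 and Jund to 0.36 (log2). Junb, near 0, turned to -0.064 without the filter, -0.0044 with stricter doublet removal, -0.032 with library totals alone, and lay between -0.066 and 0.17 with a library left out. Counts over the 12 classes stayed within 1.5 times under every alternative tried (27 to 28 higher and 23 to 24 lower with a library left out), but library totals moved the neutrophil-like calls as described. Fosb in neutrophil-like cells turned sign under 11 alternatives: -0.010 (RLE), -0.0087 (DESeq2), -0.19 (no filter), -0.16 (mitochondrial limit), -0.063 (doublets), -0.34 (1000 genes per cell), -1.11 (library totals, which move all genes down; 0.145 relative to the median of all genes), -0.48 (no muscle fibre-like droplets) and -0.25 to -0.035 with a library left out.

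Over the fibroblast-like states 0 to 5 pairs were higher and 12 to 13 lower with a library left out, the 0 without replicate 1 and the 5 without replicate 3. Without state 7 there were 0 higher and state 2 had 8 lower in place of 5, and with library totals alone 7 lower. The median log2 range of the 9 over states was 1.86, with 1.85 at resolution 0.3 and 2.61 at resolution 0.8, where there were 13 states. Thinned to 1000 UMIs, the shares in macrophage-like and fibroblast-like cells were 48.9% and 80.4% for Fos, 8.0% and 74.3% for Egr1, and 72.2% and 68.3% for Junb. Fewer UMIs leave fewer cells with one, by construction; the causes of the other shifts were not tested.

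Dropping the replicate block, which pairs sums of the same library, left 5 lower in the immune-like comparison, 25 higher and 23 lower over classes, and 3 higher and 12 lower over states. Of 74 named differences, 50 kept their sign and their side of the threshold under every alternative tried. The share of all genes called was counted for the main setting only, so counts under the alternatives have none beside them. Empty droplets were not used here, so free RNA was gauged only from matrix genes, and neutrophil-like and muscle fibre-like sums, the shallowest, limit what levels in those classes can show. Intervals cover neither digestion nor sorting.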

Other observations

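Classes with under 20 cells in a library entered no test, and their levels, in CPM of library totals, are given as values. Satellite- or myoblast-like cells, the stem and precursor cells of muscle fibres (33, 9 and 10 cells in replicates 1, 2 and 3), had 5317, 4991 and 4933 CPM of Egr1, from 2117, 313 and 658 UMIs, and 2484, 2472 and 2901 CPM of Jund. Mast- or basophil-like cells (21, 34 and 13 cells) had 3459, 4008 and 3730 CPM of Egr1 and 3330, 3193 and 4440 CPM of Jun, but 56.7, 63.1 and 320.1 CPM of Atf3. Migratory dendritic-like cells (27, 15 and 37 cells) had 33.5, 22.8 and 73.2 CPM of Egr1, from 19, 5 and 52 UMIs, and plasmacytoid dendritic-like cells (11, 12 and 11 cells) had 36.8, 169.8 and 55.3 CPM. Schwann-like cells (15, 9 and 7 cells) had 3029, 5530 and 4762 CPM of Fos.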
